A study of Homo sapiens with 12 samples.

Results

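A set of 55 genes for the machinery of mitosis was followed from proliferation into senescence, and the mRNA of all 55 was lower in senescent cells, by 3.51-fold at the median. The genes are listed members of 9 classes, namely mitotic kinases, checkpoint and anaphase control, the chromosomal passenger complex, the NDC80 complex, centromere proteins, kinesins, spindle assembly, cytokinesis, and mitotic transcription factors with Ki-67. They were chosen by name, with earlier results of these data known, so counts over them are a description. All 55 were found among the 38716 gene symbols of the deposited tables. The cells were IMR90, which are primary human fibroblasts from fetal lung. They were sampled while proliferating (Pro) or once serial passaging had exhausted their divisions, which is replicative senescence (Sen). For each state 3 cultures were grown independently, and each culture lysate gave 1 RNA-seq library and 1 Ribo-seq library, so that 12 libraries form 4 groups of 3. The labels name no other treatment, although the names of the Pro RNA-seq tables carry a tag close to that of the solvent DMSO. The culture methods of the study name 2 isolates of the line, and the labels do not tie them to samples. An effect of isolate therefore cannot be told apart from that of state.

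In mitosis, kinetochores assembled on centromeric chromatin attach chromosomes to spindle microtubules, and the spindle assembly checkpoint holds back anaphase until every kinetochore is attached. Kinases of the Aurora, Polo and BUB families drive and police these steps, kinesin motors move chromosomes and slide microtubules, and the central spindle then directs cytokinesis. Most of these genes are transcribed late in the cell cycle, when DREAM, a repressor complex built on MuvB, has given way to B-MYB and FOXM1, and cells that leave the cycle keep them silent.

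The mRNA level of a gene was the sum of its reads over the 5′ UTR, coding sequence (CDS) and 3′ UTR in an RNA-seq library, and its ribosome-protected fragments (RPF) were the CDS reads of a Ribo-seq library. Both are given in CPM, the library-scaled count unit of edgeR with TMM factors. The 3 regions held between 7902427 and 14144455 reads per RNA-seq library. Ribo-seq libraries were uneven, with 685061 and 1718521 CDS reads in Pro 2 and Pro 3, 1672807 and 583798 in Sen 1 and Sen 3, but only 54421 in Pro 1 and 54708 in Sen 2. In those shallow libraries a floor of 3 counts stands for 52.1 and 52.7 CPM, against at most 5.83 CPM in the others, and 7 members in Pro 1 and 23 in Sen 2 had no RPF count at all. A value of 0 there allows any level up to that floor, and floors and intervals cover counting error only. Fibroblast markers were all above 1 CPM in every RNA-seq library, summing to between 26820 and 31840 CPM. The 5 leukocyte markers were each under 1 CPM, the 5 epithelial markers summed to at most 2.56 CPM, and of the 5 endothelial markers only TEK passed 1 CPM, the list summing to between 54.4 and 62.1 CPM in Pro and between 93.8 and 105.6 CPM in Sen. The part of TEK-expressing cells in the results was not tested.

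All 55 members were called lower in mRNA by the quasi-likelihood test of edgeR at a Benjamini-Hochberg adjusted p under 0.15, against 37.0% of the 12787 genes tested. Their median log2 fold change was -1.81, and that of all genes was -0.01. In every member the 3 Sen libraries lay below the 3 Pro libraries, a separation seen in 34.2% of all genes tested. The fall exceeded a log2 of 1 in 49 members and a log2 of 2 in 13. RPF could be tested for 46 members, and all 46 were called lower, against 26.9% of 7521 genes, with a median log2 fold change of -2.09, a 4.26-fold fall. The RPF libraries did not overlap for 35 of these 46, against 15.7% of genes. These counts take a value of 0 in the shallow Sen 2 as it stands, although a level up to its floor could overlap Pro. AURKB, for example, had no read in Sen 2, with a floor of 52.7 CPM, and was at 38.6 CPM in Pro 2. The 9 members left out by the filter on low counts were ESPL1, CENPA, CENPH, CENPK, CENPM, CENPU, KIF14, KIF15 and FOXM1, and since the filter works on counts, a member kept through its Pro reads alone had to be lower in Sen, so the 46 are a description. With any gene of at least 1 read tested, 54 of all 55 were called lower in RPF. In bulk samples, fewer cycling cells and less RNA per cell cannot be told apart.

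As a share of the library, members took 0.29%, 0.281% and 0.285% of the mRNA reads of the Pro libraries, but 0.089%, 0.094% and 0.0973% of those of the Sen libraries, given in the order of their numbers. Of RPF reads they took 0.372% in Pro 1 (Wilson 95% interval 0.324 to 0.427%), 0.428% in Pro 2 and 0.43% in Pro 3. The RPF share was 0.0967% in Sen 1, 0.145% in Sen 2 (0.116 to 0.18%) and 0.124% in Sen 3. Every Sen share lay below every Pro share in both layers.

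**Figure D1:**
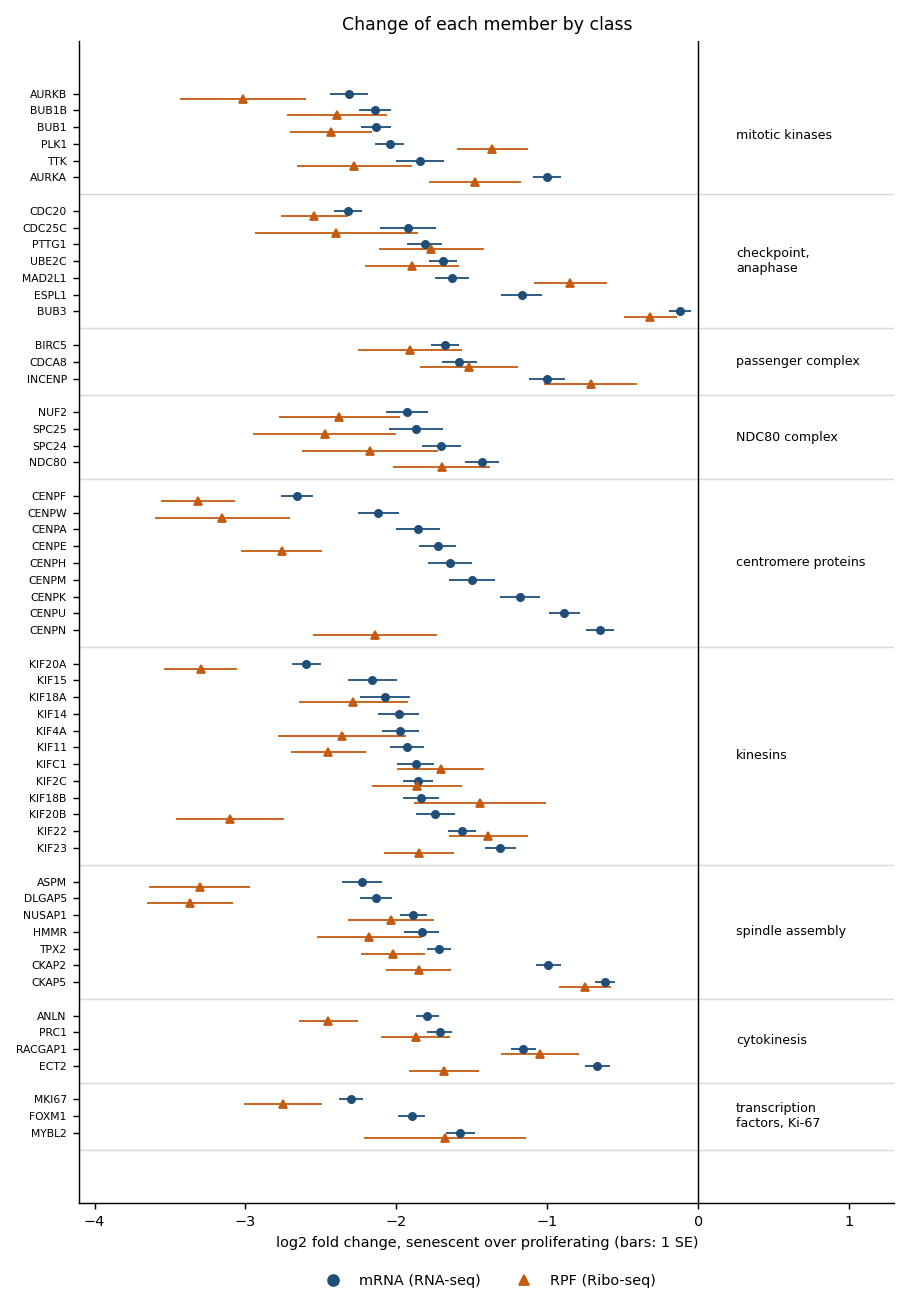
Log2 fold change of every member from Pro to Sen, in mRNA (circles) and RPF (triangles, tested members only), with bars of 1 SE, by class. All points lie left of 0, from -0.12 for BUB3 mRNA to -3.37 for DLGAP5 RPF, and in mRNA the members of every class except NDC80 span more than the class medians do.

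The promoters of the members share short elements that the choice of genes did not use. RefSeq promoter sequences (250 bases before to 50 after the annotated start, GRCh38.p14) matched 45 members, all but AURKA, TTK, BUB3, UBE2C, BIRC5, CENPH, CENPM, TPX2, RACGAP1 and FOXM1. They were searched on both strands for the cell cycle genes homology region (CHR, letters TTTGAA or TTCGAA), which DREAM and B-MYB contact through MuvB, and for CCAAT, the box of NF-Y. CHR letters were present in 34 of 45 (75.6%), against 16.6% of 27305 promoters in the table and 11.2% of the 10110 promoters of genes tested in mRNA. CCAAT was present in 35 (77.8%), against 35.7% and 36.4%. Both stood in 29 (64.4%), against 6.58% and 4.77%. In 2 members a CHR match overlapped a CCAAT match. A match is a description of the letters and not a bound site. Upstream CHR matches from 6 classes are shown to let the element be compared, each as 30 bases read 5′ to 3′ on the strand of the gene, with the CHR letters in capitals. They lie at chr16:23678848-23678877 (plus strand, PLK1), chr1:43358904-43358933 (plus, CDC20), chr1:37692481-37692510 (plus, CDCA8), chr15:69414282-69414311 (plus, KIF23), chr15:90994538-90994567 (minus, PRC1), chr15:40161034-40161063 (plus, BUB1B) and chr10:128126435-128126464 (minus, MKI67).
PLK1: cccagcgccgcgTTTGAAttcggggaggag
BUB1B: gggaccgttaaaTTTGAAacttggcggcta
CDC20: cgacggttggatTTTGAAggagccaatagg
CDCA8: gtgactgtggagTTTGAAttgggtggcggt
KIF23: ctgattggcccgTTTGAAatgcgccaggcg
PRC1: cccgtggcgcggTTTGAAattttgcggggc
MKI67: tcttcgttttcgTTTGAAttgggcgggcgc

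The CHR letters sat close to the start of transcription. Of 45 CHR matches in the member promoters, 36 began between 50 bases before the start and 50 after it, with a median at base -20, counted from -1 just before the start. The 71 CCAAT matches lay further out, with a median at base -67. At least 1 CHR match in that window of 100 bases was found in 31 members (68.9%), against 5.05% of all promoters in the table. The median mRNA log2 fold change was -1.87 over the 34 members with CHR letters and -1.73 over the 11 without, a difference that was not tested. Among the 11 without the letters were KIF20A, which fell as deeply as any kinesin, and MYBL2.

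**Figure D2:**
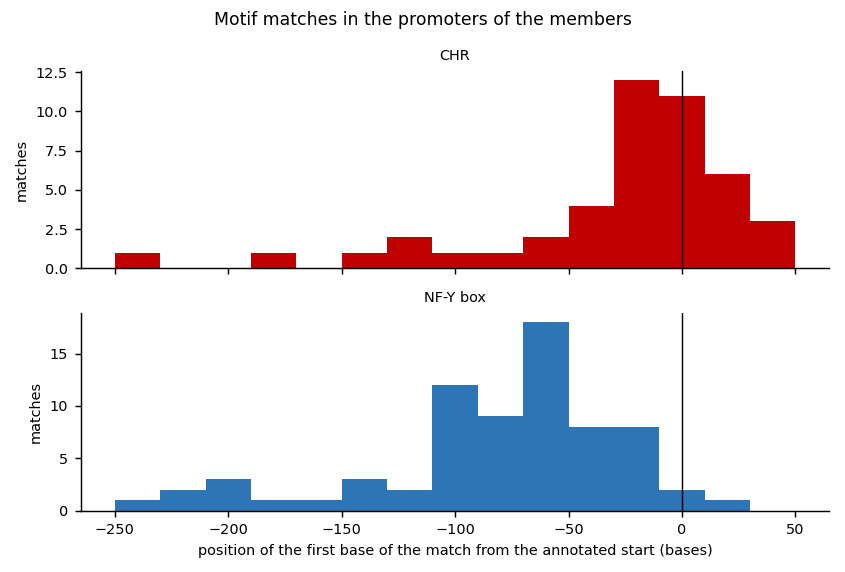
Number of CHR matches (upper panel) and of NF-Y box matches (lower panel) by the distance of their first base from the annotated start, in bases, over the promoters of 45 members. CHR matches gather at the start, with a median at base -20, and NF-Y boxes upstream of it, with a median at base -67.

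The depth of loss was described by class in each layer. By median log2 fold change of mRNA, the order from deepest to shallowest was mitotic kinases (-2.09), kinesins (-1.90), transcription factors with Ki-67 (-1.90), spindle assembly (-1.83), NDC80 complex (-1.79), checkpoint and anaphase control (-1.69), centromere proteins (-1.65), passenger complex (-1.58) and cytokinesis (-1.44). The ranges of members overlapped between all neighbours in this order, and differences between classes were not tested. Summed over a class, the mRNA level left in Sen was 25.3% for transcription factors with Ki-67, 27.3% for kinesins and 29.4% for kinases. It was 41.1% for spindle assembly and 48.8% for checkpoint and anaphase control, where the abundant CKAP5 and BUB3 weigh most. In RPF the medians were deepest for centromere proteins (-2.96, on 4 of 9 members), then kinases (-2.34), NDC80 complex (-2.28), transcription factors with Ki-67 (-2.21, on 2 of 3), kinesins (-2.07, on 10 of 12), spindle assembly (-2.04), checkpoint and anaphase control (-1.83, on 6 of 7), cytokinesis (-1.78) and passenger complex (-1.52). No class overlapped between the states in its summed level, in either layer.

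**Figure D3:**
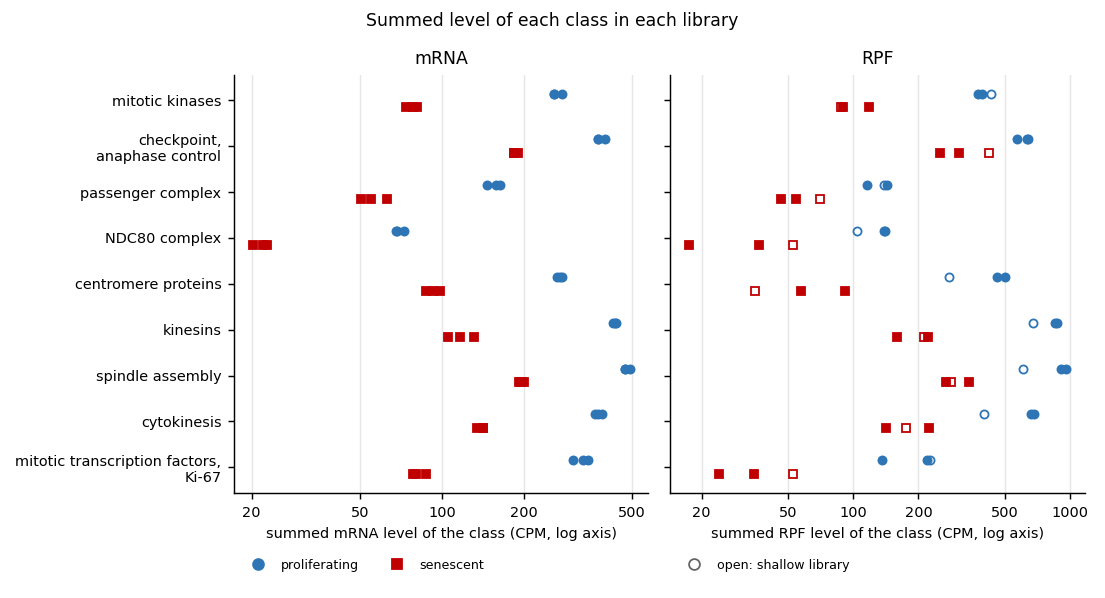
Summed level of each class in each library, in CPM on a log axis, for mRNA (left) and RPF (right), with circles for Pro, squares for Sen and open marks for the shallow Ribo-seq libraries. In all 9 classes and both panels the 3 Sen libraries lie below the 3 Pro libraries, and the Ribo-seq points spread more widely.

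All 6 mitotic kinases were lower in both layers, and their median mRNA log2 fold change was the lowest of the 9 classes, although summed levels fell further for kinesins and for transcription factors with Ki-67, and the RPF median further for centromere proteins. AURKB, the kinase of the passenger complex, was at 31.5, 29.2 and 26.6 CPM in Pro 1, 2 and 3 and at 4.89, 5.57 and 6.95 CPM in Sen 1, 2 and 3. The Sen values are far below the lowest Pro value, with a log2 fold change of -2.31 ± 0.13 (SE, edgeR adjusted p = 7.44e-13). AURKA, which matures centrosomes and spindle poles, fell least of the kinases, from 65.8, 63.2 and 56.2 CPM to 27.8, 34.7 and 29.2 CPM. These values do not overlap either, and 49.5% of the level remained (log2 -1.0 ± 0.09, adjusted p = 3.70e-09). PLK1, which acts from mitotic entry to cytokinesis, had the most RPF reads of the class. Its mRNA went from 73.1, 67.9 and 68.5 CPM to 16.7, 14.8 and 19.5 CPM (log2 -2.04 ± 0.10, adjusted p = 5.22e-14). Its RPF went from 86.8, 83.1 and 94.8 CPM to 36.9, 0 and 35.0 CPM, where the 0 belongs to the shallow library Sen 2, and its RPF log2 fold change of -1.36 ± 0.24 (adjusted p = 2.13e-06) was the smallest of the kinases. The checkpoint members of the class, BUB1, BUB1B and TTK, had mRNA log2 fold changes of -2.14, -2.14 and -1.85. Their RPF log2 fold changes were -2.44, -2.39 and -2.28.

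Checkpoint and anaphase control held both the mildest fall of all members and one of the deepest. CDC20, which activates the anaphase-promoting complex, was at 103.4, 102.4 and 93.3 CPM in Pro and at 18.1, 18.2 and 23.5 CPM in Sen. No Sen library came near a Pro library (log2 -2.32 ± 0.10, adjusted p = 5.29e-15), and its RPF fell by 2.54 on the log2 scale (SE 0.22). BUB3, a WD-repeat partner that carries BUB1 and BUB1B to kinetochores, hardly moved. Its mRNA was at 129.5, 126.5 and 126.1 CPM in Pro and at 119.4, 122.1 and 109.8 CPM in Sen. The groups were apart by a few CPM only, with 91.9% left (log2 -0.12 ± 0.07, adjusted p = 0.141), a call that was lost when any library but Sen 2 was left out (adjusted p from 0.162 to 0.331). In RPF, BUB3 was at 104.1, 194.4 and 215.8 CPM in Pro and 148.7, 281.3 and 161.4 CPM in Sen, groups that overlap. The mean CPM was in fact higher in Sen, 197.1 against 171.4, while the fit, in which deep libraries weigh more, gave a log2 change of -0.32 ± 0.18 (adjusted p = 0.136). The call was lost under 8 of 13 alternatives, among them those without Pro 2, Pro 3 (-0.12), Sen 1 (-0.16) or Sen 3 (adjusted p from 0.256 to 0.778), and the change was -0.04 with a replicate block (adjusted p = 0.933), so BUB3 is called lower in RPF only by a narrow margin. Among the other members, UBE2C, the ubiquitin-conjugating enzyme of the anaphase-promoting complex, fell by 1.69 in mRNA and by 1.90 in RPF. The securin PTTG1 fell by 1.81 and 1.77, and the phosphatase CDC25C, which activates CDK1, by 1.92 and 2.40. The RPF change of CDC25C rested on 1, 14 and 30 reads in Pro and 4, 2 and 1 in Sen. Its RPF groups overlapped through the shallow Sen 2, and the call was lost under 1 of 13 alternatives. ESPL1, the separase that cleaves cohesin, fell by 1.17 in mRNA and had too few RPF reads to test. Reads of PTTG1 are uncertain, since its near copy PTTG2 held 58, 73 and 60 RNA-seq CDS reads in Pro against 302, 335 and 257 for PTTG1.

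The 3 partners of AURKB in the passenger complex, which corrects faulty attachments from the inner centromere, fell in both layers. The survivin gene BIRC5 was at 90.7, 85.8 and 74.5 CPM in Pro and 26.8, 23.4 and 28.5 CPM in Sen. The Sen libraries were close to each other and far under Pro (log2 -1.68 ± 0.09, adjusted p = 8.93e-13). The scaffold INCENP was at 28.8, 29.8 and 36.5 CPM in Pro and 16.6, 13.3 and 18.1 CPM in Sen, a fall of 1.0 ± 0.12 on the log2 scale (adjusted p = 1.58e-07) without overlap. Its RPF fall of 0.71 ± 0.31 (adjusted p = 0.0559) was the weakest of the class. It was not called under 4 of 13 alternatives, among them without Pro 3 (adjusted p = 0.194), Sen 1 (0.196) or Sen 3 (0.169). CDCA8, or borealin, fell by 1.58 in mRNA and 1.52 in RPF.

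The 4 subunits of the NDC80 complex, the main microtubule anchor of the outer kinetochore, fell together. NUF2 was at 16.8, 16.9 and 18.4 CPM in Pro and 3.72, 5.42 and 4.30 CPM in Sen (log2 -1.93 ± 0.14, adjusted p = 7.18e-11). NDC80 itself was at 24.8, 23.7 and 24.2 CPM in Pro and 7.77, 9.09 and 9.87 CPM in Sen (log2 -1.43 ± 0.11, adjusted p = 2.54e-10). Both separate cleanly, and SPC24 and SPC25, which link the complex to the inner kinetochore, lay between them at -1.70 and -1.87. In RPF the 4 subunits ran from -1.70 for NDC80 to -2.48 for SPC25, each below its mRNA change. SPC24 had 12, 0 and 0 RPF reads in Sen 1, 2 and 3, so its RPF change (-2.18 ± 0.45, adjusted p = 5.47e-05) rests on Sen 1, without which no Sen read is left.

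Centromere proteins spread over a wider range in mRNA than the other classes except checkpoint and anaphase control. CENPF, a large kinetochore protein made in G2 and mitosis, fell deepest of all 55 members in mRNA. It was at 78.8, 86.8 and 98.4 CPM in Pro and 11.4, 14.4 and 15.7 CPM in Sen, so that 15.7% was left (log2 -2.66 ± 0.11, adjusted p = 3.99e-15). Its RPF fell from 104.1, 207.8 and 221.8 CPM to 14.7, 35.2 and 35.0 CPM (log2 -3.32 ± 0.24, adjusted p = 6.90e-20), with all Sen values far below Pro. CENPN, which reads the CENP-A nucleosome, was at the other end in mRNA, at 52.2, 48.3 and 42.9 CPM in Pro and 27.2, 32.5 and 31.2 CPM in Sen (log2 -0.65 ± 0.09, adjusted p = 2.55e-06). Members of the constitutive network at the inner kinetochore lay between, with mRNA log2 changes of -1.65 for CENPH, -1.18 for CENPK, -1.50 for CENPM, -0.89 for CENPU and -2.12 for CENPW. The motor CENPE, which carries chromosomes to the spindle equator, fell by 1.73 in mRNA and 2.76 in RPF, and the centromeric histone CENPA fell by 1.86 in mRNA. By the annotation used here (GENCODE v44 on GRCh37), exons of CENPN overlap CMC2 and those of CENPU overlap PRIMPOL on the opposite strand, and the strand rule of the counts is not given in the sources used here, so these values are uncertain.

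All 12 mitotic kinesins fell in mRNA, from -1.31 to -2.60. KIF20A, which carries the passenger complex to the central spindle, was at 81.0, 77.6 and 74.6 CPM in Pro and 11.1, 13.0 and 14.2 CPM in Sen. No other kinesin lost as much, with 16.4% left (log2 -2.60 ± 0.10, adjusted p = 7.85e-16), and its RPF fell by 3.30 ± 0.24 (adjusted p = 6.90e-20). KIF23, the motor of the centralspindlin complex, fell least, from 62.1, 54.5 and 62.5 CPM to 19.3, 24.9 and 27.3 CPM (log2 -1.31 ± 0.10, adjusted p = 2.62e-10). KIF11, which slides spindle poles apart, fell by 1.93 in mRNA and 2.45 in RPF. The depolymerases KIF2C and KIF18A fell by 1.86 and 2.07 in mRNA, and the chromokinesins KIF22 and KIF4A by 1.56 and 1.98. The minus-end motor KIFC1 fell by 1.87, KIF14 by 1.98, KIF15 by 2.16 and KIF18B by 1.84. The RPF fall of KIF18B (-1.45 ± 0.44, adjusted p = 0.00543) was not called under 3 of 13 alternatives, among them without Sen 1 (-0.40, adjusted p = 0.674). It was -2.31 without Sen 3. Without Sen 1 the RPF change of KIF2C went from -1.86 to -1.05 and that of KIF20B from -3.10 to -5.08, both still called. KIF4A has a near copy, KIF4B, whose RNA-seq CDS reads were 87, 120 and 110 in Pro against 178, 247 and 200 for KIF4A, so the split of reads between them is uncertain.

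Among spindle assembly factors, 5 of 7 fell by more than 1.7 on the log2 scale and 2 fell less. ASPM, which focuses spindle poles, was at 30.5, 36.7 and 43.1 CPM in Pro and 8.30, 6.89 and 8.68 CPM in Sen (log2 -2.23 ± 0.13, adjusted p = 2.17e-12). CKAP5, a microtubule polymerase that interphase cells use too, was at 139, 135.2 and 137.9 CPM in Pro and 91.0, 88.2 and 89.5 CPM in Sen. It kept 65.2% of its mRNA (log2 -0.62 ± 0.07, adjusted p = 6.50e-08) with very tight groups on both sides. Its RPF fall of 0.75 ± 0.17 (adjusted p = 2.15e-04) stood beside it, and the RPF groups overlapped through Pro 1. TPX2, the activator of AURKA, fell by 1.72 in mRNA and 2.02 in RPF, NUSAP1, which bundles spindle microtubules, by 1.89 and 2.04, and HMMR, a spindle-pole protein and hyaluronan receptor, by 1.83 and 2.18.

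The cytokinesis class had the shallowest mRNA median. ANLN, or anillin, the scaffold of the contractile ring, was at 148.8, 151.7 and 161.8 CPM in Pro and 41.4, 43.2 and 48.7 CPM in Sen (log2 -1.79 ± 0.08, adjusted p = 1.88e-14). ECT2, which switches on RhoA at the cleavage furrow, was at 55.3, 57.2 and 66.3 CPM in Pro and 37.2, 38.5 and 36.8 CPM in Sen (log2 -0.67 ± 0.08, adjusted p = 4.40e-07). Both were free of overlap, yet ECT2 kept 63.0% of its mRNA and ANLN 28.8%. PRC1, which bundles the central spindle, fell by 1.71 in mRNA and 1.87 in RPF, and RACGAP1, the partner of KIF23, by 1.16 and 1.05. The RPF call of RACGAP1 was lost under 1 of 13 alternatives. The RPF change of PRC1 was -1.10 without Sen 1 and still called. Other annotated genes share most or many of the exonic bases of PRC1 and of the spindle factor NUSAP1, so reads of both are uncertain.

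Ki-67 and the late cell cycle factors fell by 1.58 to 2.30 in mRNA. MKI67, whose protein coats mitotic chromosomes and serves as the usual marker of cycling cells, was at 148.4, 152.1 and 148.3 CPM in Pro and 31.1, 28.2 and 32.2 CPM in Sen. Its libraries agreed closely within each state, and 20.4% was left (log2 -2.30 ± 0.08, adjusted p = 2.31e-16). Its RPF fell from 156.2, 169.2 and 109.7 CPM to 16.1, 35.2 and 27.2 CPM (log2 -2.75 ± 0.26, adjusted p = 7.46e-15). MYBL2, the gene of B-MYB, was at 77.3, 69.4 and 62.7 CPM in Pro and 20.6, 22.9 and 26.2 CPM in Sen (log2 -1.58 ± 0.10, adjusted p = 5.20e-12). Its RPF fall of 1.68 ± 0.54 (adjusted p = 0.00864) rested on 18 reads or fewer per library, and its groups overlapped. The call was lost under 4 of 12 alternatives, among them without Pro 2 (adjusted p = 0.168) or Sen 1 (-1.01, adjusted p = 0.408). FOXM1, the forkhead activator of G2/M genes, fell in mRNA from 117.8, 108.2 and 91.8 CPM to 28.7, 27.2 and 29.2 CPM (log2 -1.90 ± 0.09, adjusted p = 8.13e-14), and was too sparse in RPF to test.

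RPF fell further than mRNA in most members. Translational efficiency (TE), the ratio of RPF to mRNA, was tested as the interaction of library type with state. Its change was negative in 37 of 46 members, against 3820 of all 7473 genes tested. The median log2 change was -0.33 in members and -0.01 over all genes tested. The 46 passed the filter on RPF counts, which a member can pass through its Pro reads alone, so these values are a description. Few members passed the test on their own. TE was called lower in 6 members (4.48% of all genes were) and higher in 1 (4.88% of all genes were). By class, the median TE change ran from -0.97 for 4 centromere proteins to 0.07 for the passenger complex. The TE calls changed with the tool and with the library left out. DESeq2 called 0 of 46 members in either direction at an adjusted p under 0.15, with 2 members under an unadjusted p of 0.05, and edgeR called from 1 (without Pro 2) to 11 (without Pro 1) members lower.

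**Figure D4:**
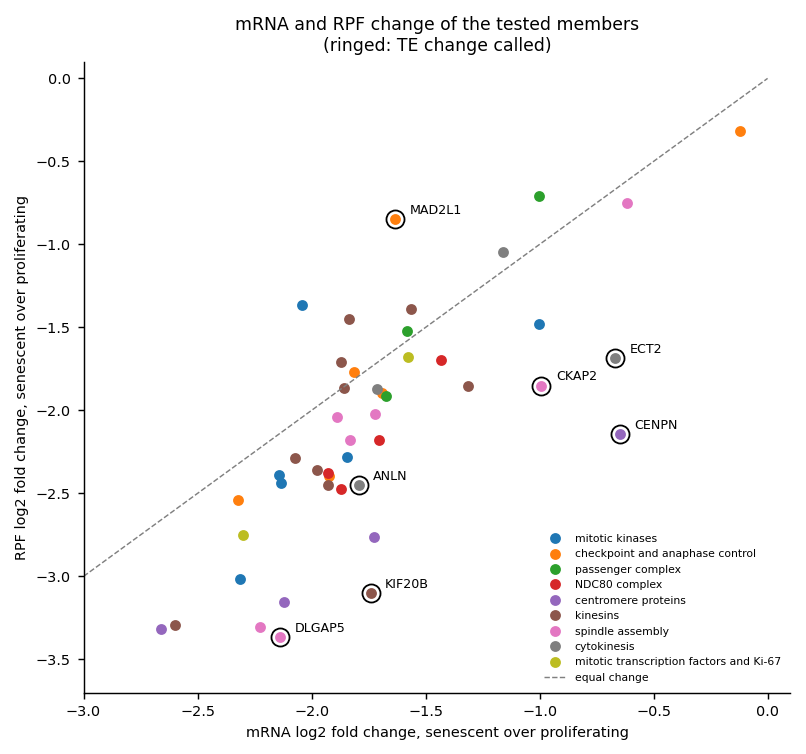
RPF log2 fold change against mRNA log2 fold change, Sen over Pro, for 46 members coloured by class, with the line of equal change and rings on the 7 members whose TE change was called. Most points, 37 of 46, lie below the line, and MAD2L1 is the ringed member above it.

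The members with a lower TE belong to several steps of mitosis. In the lysates Pro 1, 2 and 3 the log2 TE of CENPN was -1.01, -0.67 and -0.43, and in Sen 1, 2 and 3 it was -1.96, -1.89 and -1.84. The groups did not overlap (change -1.50 ± 0.45, adjusted p = 0.0423), but the RPF behind them were 1, 20 and 53 reads in Pro and 10, 0 and 4 in Sen. The Sen 2 value rests on no read in a shallow library, and a level up to its floor would overlap Pro. KIF20B, a kinesin of the late central spindle, had a log2 TE of 1.57, 1.27 and 1.44 in Pro and 0.47, 0.47 and -1.44 in Sen. These values did not overlap either (change -1.38 ± 0.43, adjusted p = 0.0554), on 3, 38 and 124 reads in Pro and 15, 0 and 1 in Sen. For KIF20B too the Sen 2 value rests on no read, so its separation from Pro is not established. ECT2 had a log2 TE of 0.50, 1.06 and 0.82 in Pro and -0.23, -2.13 and 0.48 in Sen (change -0.94 ± 0.26, adjusted p = 0.0266). All Sen lysates of ECT2 lay below Pro, with Sen 3 just under Pro 1 and with no read in Sen 2.

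DLGAP5, CKAP2 and ANLN were called as well, with TE values that overlapped between the states. DLGAP5, or HURP, which stabilises kinetochore fibres, had the deepest RPF fall of all members (-3.37 ± 0.29, adjusted p = 8.29e-17) on 6, 93 and 186 reads in Pro and 21, 1 and 2 in Sen, beside an mRNA change of -2.14. Its TE change was -1.14 ± 0.38 (adjusted p = 0.0766). CKAP2, a spindle microtubule protein, fell by 0.99 in mRNA but by 1.85 in RPF, a TE change of -0.80 ± 0.24 (adjusted p = 0.0475). ANLN, with the most RPF reads of the class (10, 225 and 592 in Pro, 81, 4 and 37 in Sen), had a TE change of -0.60 ± 0.21 (adjusted p = 0.0947). Each of the 6 calls was lost without at least 1 library: without Pro 2 for KIF20B, CKAP2, DLGAP5, ECT2 and ANLN, without Pro 3 for CENPN, KIF20B and ANLN, without Sen 1 for CENPN, CKAP2, ECT2 and ANLN, and without Sen 3 for CENPN, KIF20B, DLGAP5 and ANLN. Over these losses the TE changes were from -0.44 (CKAP2 without Sen 1) to -1.57 (CENPN without Sen 1), all still negative, with ECT2 at -0.60 without Sen 1 and DLGAP5 at -0.62 without Sen 3. Sen 1, the deepest Sen library, also set the size of called changes, which grew to -2.52 for DLGAP5 and -3.47 for KIF20B in TE without it.

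MAD2L1, the checkpoint protein MAD2 that holds CDC20 inactive, was the member called higher in TE. Its mRNA was at 35.6, 34.7 and 41.7 CPM in Pro and 9.79, 13.6 and 12.3 CPM in Sen (log2 -1.63 ± 0.11, adjusted p = 4.15e-11). Its RPF were at 69.4, 78.7 and 75.7 CPM in Pro and at 36.2, 0 and 62.2 CPM in Sen, a smaller fall of 0.85 ± 0.24 (adjusted p = 0.00343). The log2 TE was 1.13, 1.19 and 0.86 in Pro and 1.89, -0.63 and 2.35 in Sen, where the low value is the shallow Sen 2 with no read. The groups overlap for that reason. The change of 1.0 ± 0.29 (adjusted p = 0.037) was not called under 4 of 14 alternatives, among them without Pro 3 (adjusted p = 0.275), Sen 1 (0.204) or Sen 3 (0.404). The RPF change of MAD2L1 was not called under 3 of 13 alternatives, among them without Sen 1 (-0.45, adjusted p = 0.357).

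Levels can be compared between members per kb of coding length, with CDS reads in both library types. In Pro the mRNA level per kb was highest for BUB3 (82.2 ± 4.45 CPM per kb, SD, n = 3), UBE2C (68.4 ± 4.0), BIRC5 (66.5 ± 10.3) and CDC20 (61.2 ± 3.68), whose SDs overlap for the last 3. The RPF level per kb was highest for CENPW (199 ± 117), BUB3 (174 ± 60.2), CDC20 (145 ± 45.8) and UBE2C (136 ± 51.8), which do not differ beyond their spread. The CENPW mean leaned on the shallow Pro 1, where 5 reads gave 86.8 CPM, against 26.7 and 44.1 CPM in Pro 2 and Pro 3. The following members were chosen after their values were seen. FOXM1 and MYBL2 had far fewer RPF than their mRNA level would give at the ratio of most members: FOXM1 stood at 33.7 ± 4.79 CPM per kb in mRNA and 13.7 ± 8.18 in RPF, and MYBL2 at 30.4 ± 3.46 and 7.99 ± 2.76. In Pro 2 and Pro 3, the log2 ratio of RPF to RNA-seq CDS reads was -1.45 and -2.09 for FOXM1 and -1.47 and -2.36 for MYBL2, against a median of 0.60 and 0.65 over 7224 genes with at least 100 RNA-seq CDS reads. Only 4.51% and 1.43% of these genes had a lower ratio than FOXM1, and 4.32% and 0.886% a lower ratio than MYBL2. MAD2L1 was near the other end, with 98.0% and 96.4% of genes lower. CENPA was low as well, at 16.9 ± 3.15 CPM per kb in mRNA and 5.67 ± 5.11 in RPF, but on 0, 2 and 7 RPF reads. Exons of FOXM1 share 782 bases with ITFG2 on the opposite strand in the annotation, and the part of those reads in its level was not tested.

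**Figure D5:**
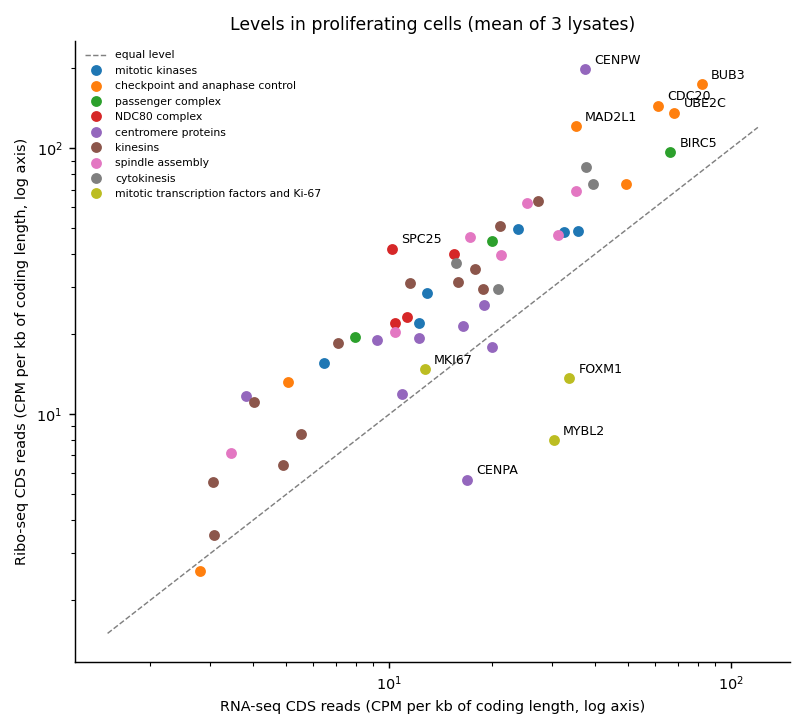
Mean Ribo-seq CDS level against mean RNA-seq CDS level of the members in the 3 Pro lysates, in CPM per kb of coding length on log axes, with the line of equal level and classes by colour. FOXM1 (33.7 and 13.7 CPM per kb), MYBL2 (30.4 and 7.99) and CENPA (16.9 and 5.67) fall below the line. CENPW (37.4 and 199) stands highest, with a mean that leans on 5 reads in the shallow Pro 1.

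Reads of the members were more concentrated in the CDS than those of all genes. In Ribo-seq, 98.1% and 98.5% of the region reads of members were in the CDS in Pro 2 and Pro 3, and 96.8% and 98.2% in Sen 1 and Sen 3. Over all genes these shares were 94.5%, 96.0%, 91.7% and 81.5%. In the shallow Sen 2, 89.8% of member reads but only 40.6% of all reads were in the CDS. The 3′ UTR share of the members in RNA-seq was 13.7%, 13.8% and 13.7% in Pro and 16.6%, 17.8% and 15.8% in Sen, without overlap, while over all genes it was between 24.7 and 25.1% in Pro and between 26.8 and 28.8% in Sen.

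Genes of the same pathways outside the 55 did not all fall. Over all genes tested, 37.0% were called lower and 36.6% higher in mRNA, and 26.9% lower and 27.5% higher in RPF, and the counts below stand beside these shares. Of 32 other centromere and kinetochore genes, 25 were lower, 3 higher and 4 not called in mRNA, with a median of -0.62. They ran from KNTC1 (-1.91 ± 0.13, adjusted p = 1.60e-11), part of the complex that brings dynein to kinetochores, to CENPX (0.50 ± 0.09, adjusted p = 2.85e-05), a histone-fold protein that also serves DNA repair. In RPF, 15 of the 20 tested were lower and 1 was higher, with a median of -1.21. Of 14 other mitotic and NEK kinases, 11 fell and 3 rose in mRNA (median -0.98), from NEK2, a centrosome kinase, at -2.16 ± 0.14 (adjusted p = 1.14e-11) to PLK3, a stress-responsive Polo kinase, at 1.01 ± 0.10 (adjusted p = 7.63e-09), and 7 of 12 fell and 1 rose in RPF.

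The 15 core subunits of the anaphase-promoting complex, on which CDC20 and UBE2C act, were called in shares near those of all genes. In mRNA 5 fell, 5 rose and 5 were not called, with a median of 0.07, from ANAPC1 (-0.73 ± 0.09, adjusted p = 3.65e-07) to CDC16 (0.38 ± 0.07, adjusted p = 1.02e-04). In RPF 3 of 11 fell and 2 rose. Kinesins listed as working outside mitosis, as in vesicle and organelle transport, were mostly called higher in mRNA, where 15 of 22 tested rose and 4 fell, with a median of 0.24. The list was set by name, and a role of some of these kinesins in mitosis is not excluded. In RPF 3 of 14 rose, 2 fell and 9 were not called, with a median of 0.26. In mRNA these kinesins ran from KIF27 (-0.60 ± 0.22, adjusted p = 0.0207) to KIF1C (0.94 ± 0.08, adjusted p = 8.52e-10), a transporter of dense-core vesicles. The mRNA of KIF1C was at 266.3, 252.1 and 232.6 CPM in Pro, and all Sen libraries were higher, at 511.7, 430.7 and 496.1 CPM. CHR letters were found in 11 of 27 promoters matched for the other centromere and kinetochore genes (40.7%), in 3 of 9 for the other mitotic and NEK kinases (33.3%), in 3 of 15 for the anaphase-promoting complex, in 2 of 12 for the MuvB and DREAM partners and in 2 of 19 for the kinesins outside mitosis. Of 15 MuvB and DREAM partners, 8 fell and 2 rose in mRNA (median -0.48), from LIN9 (-1.28 ± 0.17, adjusted p = 1.07e-06) to LIN37 (0.50 ± 0.13, adjusted p = 0.00146), both subunits of MuvB, and in RPF 3 of 9 fell and 2 rose, near the shares over all genes.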

How the data were processed

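RNA-seq and Ribo-seq were taken from the same lysates of IMR90, grouped by the labels. For each gene the deposited values are expected counts of reads in the 5′ UTR, CDS and 3′ UTR, made by the authors without scaling to depth. Among CDS values above 0, from 12.1% to 22.7% were not whole. The tests had been planned for plain counts, so summed regions were rounded, and the 16451 symbols with a CDS read in some library were kept. The submitters' processing notes name cutadapt 1.18, Bowtie 1.0.1, SAMtools 1.8 and DESeq2 1.22.2, and the genome build, annotation, strand rule and treatment of multiply placed reads are not given in the sources used here. Depth was from 7902427 to 14144455 region reads in RNA-seq and from 54421 to 1718521 CDS reads in Ribo-seq.

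Tests used edgeR 4.0.16 in R 4.3.3 (quasi-likelihood, filterByExpr, TMM within library type, two-sided), with Benjamini-Hochberg adjustment over all genes tested and a threshold of 0.15. The mRNA and RPF tests each used 6 libraries. The TE test used 12, with terms for lysate (as a block), for library type and for the interaction of type with state. SE is the log2 fold change over the root of F. Log2 TE of a lysate adds 0.5 to each count. Errors of levels are SDs over 3 cultures. Scripts were tested on simulated data. Alternatives were DESeq2 1.42.0, other scalings and filters, other regions, a replicate block and leaving out libraries.

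Members, classes, pathway lists and the rule for genes named with values in every library (per class the lowest and highest mRNA change and the most RPF reads, every TE call, any member that rose or was not called lower in mRNA, MKI67, and the ends of each pathway list) were chosen with earlier results of these data known. Replicate numbers are shared by Pro and Sen but come from separate cultures, so the states were not treated as paired.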

Additional observations from a re-analysis of the deposited data

Results flagged for a closer look

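The change from Pro to Sen differed between RPF and mRNA, by the interaction test, in 7 members. The log2 TE change was -1.50 for CENPN, -1.38 for KIF20B, -1.14 for DLGAP5, -0.94 for ECT2, -0.80 for CKAP2 and -0.60 for ANLN, and 1.0 for MAD2L1. In 4 of the 7 (DLGAP5, CKAP2, ANLN and MAD2L1) the lysate values of the states overlapped. In CENPN, KIF20B and ECT2 they did not, but the Sen 2 value rests on no read in a shallow library. Groups of 3 are too small for a test of single outlying libraries.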

How the results depend on the processing

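Direction held for every count, median and called member change tried, and no value reversed. Members called lower stayed between 54 and 55 of 55 in mRNA and between 38 (DESeq2) and 54 in RPF, where the set tested varies with the filter. A minimum of 10 counts in every library left no member to test in RPF or TE, so it gives no value there. Scaling by library totals moved the median of all genes by about -0.11 in mRNA and -0.14 in RPF, and the members' mRNA median to -1.92. CDS reads alone gave -1.75.

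TE calls were the least stable. DESeq2 gave 0 lower and 0 higher, leaving out the shallow lysates gave 11 and 2, and an adjusted p under 0.05 gave 3 lower. Leaving out 1 lysate gave from 1 to 11 lower and from 0 to 1 higher. Without the replicate block, 9 were lower and 2 higher. Between Pro and Sen the replicate numbers share only a number: deviations of same-numbered libraries correlated at -0.07 to 0.10. For RNA-seq and Ribo-seq of one lysate the correlations were as low, from -0.12 to 0.17. The block on lysate therefore rests on the protocol and not on these correlations. A replicate block across Pro and Sen gave 55 members lower in mRNA and 42 in RPF, with RPF medians of -1.81 for kinesins and -1.34 for cytokinesis.

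Class medians of mRNA under library totals were -2.19 (kinases), -1.80 (checkpoint), -1.89 (NDC80), -1.75 (centromere), -1.94 (spindle), -1.54 (cytokinesis) and -2.0 (transcription factors with Ki-67). Without the shallow lysates they were -1.97 (kinases), -1.74 (centromere) and -1.78 (transcription factors), and -2.37 for kinesins in RPF. The fold of the summed CPM was -1.76 (kinases), -1.04 (checkpoint), -1.69 (NDC80), -1.55 (centromere) and -1.28 (spindle) in mRNA, and -2.02 (kinases), -0.91 (checkpoint), -1.22 (passenger) and -1.47 (spindle) in RPF. Leaving out 1 library gave mRNA medians from -1.76 to -1.67 (checkpoint), -1.86 to -1.77 (spindle) and -2.0 to -1.82 (transcription factors). In RPF it gave -2.39 to -1.88 (kinases), -1.99 to -1.38 (checkpoint), -2.48 to -2.0 (kinesins), -2.10 to -1.22 (cytokinesis) and -2.85 to -1.91 (transcription factors). Of all class medians tried, 115 of 135 in mRNA and 112 of 126 in RPF moved by less than 1 SD between libraries. That SD is the larger within-state SD of the log2 summed level of the class. It ran from 0.034 (spindle) to 0.16 (passenger) in mRNA and from 0.241 (kinases) to 0.812 (NDC80) in RPF. The yardstick was thus wider in RPF, so the counts do not compare the stability of the layers. The cause of the other moves was not tested. Depth limits RPF and TE, since Pro 1 and Sen 2 hold few reads per member.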
